A study of Mus musculus with 4 samples.

Results

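Gene expression in mouse blastocysts was compared between a pair of culture experiments, the one with 2-hydroxyglutarate (2-HG) and the one with α-ketoglutarate (α-KG). Each experiment has 2 libraries, a treated one and its own negative control, so the comparison sets 2 libraries against 2 and uses all 4 libraries of the study. It is a comparison of embryo states that go with the experiment, not a test of the compounds. Each side averages a treated library and its control, so part of any effect of a compound stays in the difference. The groups were embryos with 2-HG at 0.3 mM, the negative control of the 2-HG experiment, embryos with α-KG at 0.15 mM, and the negative control of the α-KG experiment. All were C57BL/6 embryos taken as zygotes from the oviduct and grown in KSOM, a simple embryo culture medium, with any compound present from the stage of 2 pronuclei. The labels do not give the number of embryos in a library, the enantiomer of 2-HG, what the negative controls received, or whether both experiments were run side by side. A difference between the experiments can therefore come from embryos, culture, the compounds or library preparation, and these cannot be told apart. Each labelled group holds 1 library, so p-values set the difference between the experiments against the spread within them, which includes treated against control. They describe only these 4 libraries.

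A blastocyst consists of an outer trophectoderm, which pumps fluid into a cavity, and an inner cell mass that splits into epiblast and primitive endoderm. Embryos in a simple medium rely in part on their own synthesis and on recycling for amino acids and sterols, and 2 sensing systems, among others, match transcription to supply. In the integrated stress response, kinases that sense missing amino acids, misfolded protein in the endoplasmic reticulum (ER) or other stress slow translation and raise the transcription factor ATF4, which switches on amino acid synthesis, amino acid uptake and the stress genes Ddit3, Trib3 and Nupr1. When membranes of the ER run low in cholesterol, the factor SREBP2 is released and switches on the enzymes of cholesterol synthesis. Lysosomes, acidified by the V-ATPase proton pump, break down protein and lipid taken up or recycled by the cell.

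The values are TPM, that is length-scaled transcript abundances with a common total, and differences are given as log2(TPM + 1), the 2-HG experiment minus the α-KG experiment. Of 53715 genes, 10420 reached 5 TPM in at least 1 of the 4 libraries and were tested. The libraries listed 9062 genes at 5 TPM or more with 2-HG and 9417 in its control, against 9342 with α-KG and 9196 in its control. Across genes, log2(TPM + 1) had a Pearson r of 0.955 within the 2-HG experiment and 0.953 within the α-KG experiment, against 0.945 to 0.949 across experiments. Coding genes of the Y chromosome summed to 230 TPM with 2-HG and 211 TPM in its control, against 145 TPM with α-KG and 254 TPM in its control. Xist, the RNA that silences one X chromosome of female cells, stood at 11.2 TPM with 2-HG and 29.7 TPM in its control, against 62.6 TPM with α-KG and 1.04 TPM in its control. The control of the α-KG experiment thus had the lowest Xist and the highest Y-linked sum, and the part of embryo sex in the results was not tested. The median difference over the 373 tested X-linked genes was -0.12. Cumulus and granulosa cell markers summed to 4.50 TPM with 2-HG and 3.13 TPM in its control, against 1.43 TPM with α-KG and 2.13 TPM in its control. Of those 13 markers, 11 stayed at or under 1 TPM in every library, and 7 were listed at 0 in all. Of 8 oviduct epithelium markers, 1 was measured, Tppp3, with 3.56 TPM with 2-HG and 5.04 TPM in its control, against 0.43 TPM with α-KG and 0.545 TPM in its control, while the ciliary factor Foxj1 was listed at 0 in all. Blood cell markers summed to 20.5 TPM with 2-HG and 29.3 TPM in its control, against 30.7 TPM with α-KG and 11.6 TPM in its control, mostly from Cd68, and the part of other cell types in the results was not tested.

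Only a few genes separated the experiments beyond the spread within them. By limma's moderated test with Benjamini-Hochberg adjustment over all genes tested, 2 genes rose and 3 fell in the 2-HG experiment, which is 0.0192% and 0.0288% of the genes tested. Without adjustment, 541 genes (5.19%) were higher and 358 genes (3.44%) lower at p under 0.05. A count by size and order takes genes at least 2-fold apart whose libraries do not overlap between the experiments. It held 204 genes higher (1.96%) and 180 lower (1.73%) in the 2-HG experiment, and it is a description without a test, because 2 against 2 libraries cannot go below an exact two-sided permutation p of 0.33. Without the size condition, 2113 genes were higher in both libraries of the 2-HG experiment than in both of the α-KG experiment, and 2111 were lower (20.3% each). The limma calls rest on the full set of libraries. Without the 2-HG control, limma called 0 genes higher and 3 lower, of which 0 were among the genes called with all libraries, with 928 genes at an unadjusted limma p under 0.05. Leaving out any other library left 0 in both directions, with 525 to 830 genes at an unadjusted limma p under 0.05. Without the trend of the spread with expression, limma called 0 genes in both directions, with 750 at an unadjusted p under 0.05.

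Gatad2a, a subunit of the nucleosome remodelling complex NuRD, rose in the 2-HG experiment. It stood at 70.0 TPM with 2-HG and 81.4 TPM in its control, against 5.13 TPM with α-KG and 8.22 TPM in its control, a log2 difference of 3.35 (SE 0.28, limma adjusted p = 0.00871). Haus1, a subunit of the augmin complex that builds spindle microtubules, also rose, with 129 TPM with 2-HG and 142 TPM in its control, against 15.6 TPM with α-KG and 7.07 TPM in its control (log2 difference 3.56, SE 0.33, limma adjusted p = 0.0134). In both genes the lower library of the 2-HG experiment lay far above the higher one of the α-KG experiment. This gap was 2.94 for Gatad2a and 2.97 for Haus1 in log2(TPM + 1). Haus1 was less even within the α-KG experiment, where the treated library stood well above its control. Haus1 shares 129 exon bases on the opposite strand with Atp5a1, and the labels do not say whether the libraries kept the strand.

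Vamp8, a SNARE protein of late endosomes and lysosomes, fell to 10.1 TPM with 2-HG and 10.9 TPM in its control, against 149 TPM with α-KG and 87.9 TPM in its control (log2 difference -3.32, SE 0.28, limma adjusted p = 0.00871). Tra2a, a splicing regulator, fell to 52.8 TPM with 2-HG and 47.1 TPM in its control, against 179 TPM with α-KG and 152 TPM in its control (log2 difference -1.71, SE 0.19, limma adjusted p = 0.0426). With treated against control as a second term, the adjusted p of Tra2a was 0.113. The third gene that fell is a clone-named protein-coding gene, RP23-199B10.2, which the rule for named genes leaves out and which is named here after its values were seen. It was near 0 in the 2-HG experiment, with 0.000643 TPM with 2-HG and 0.000386 TPM in its control, against 38.4 TPM with α-KG and 94.6 TPM in its control. All 944 of its exon bases lie on the same strand within exons of Mkks, a chaperonin-like gene, which had 44.3 TPM with 2-HG and 41.1 TPM in its control, against 18.2 TPM with α-KG and 9.32 TPM in its control. How reads of overlapping genes were divided is not given in the sources used here, so the fall of the clone and the higher Mkks cannot be told apart from another division of shared reads.

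Both arms of the study compare the experiments once each, with no library in common. The treated arm sets the 2-HG library against the α-KG library, and the control arm sets one negative control against the other. Over the 10420 genes, the differences in both arms had a Pearson r of 0.127, a description across genes that are not independent replicates. Of the 1031 genes at least 2-fold apart in the treated arm, 544 (52.8%) had the same sign in the control arm, and 162 were also at least 2-fold apart there. Most large differences in one arm were thus not seen in the other, and the gene groups below differ in how far they were. The median over all genes was -0.09 in the treated arm and 0.09 in the control arm, so list medians near these values are no departure from the whole.

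**Figure D1:**
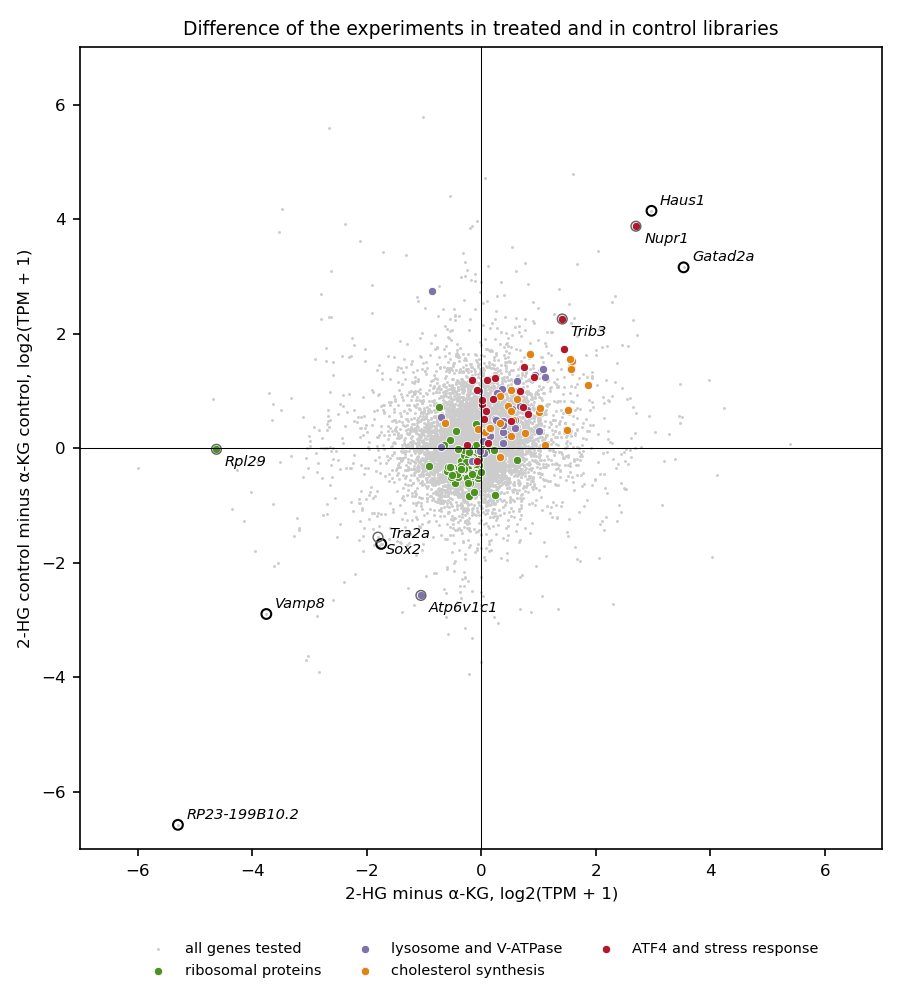
Each point is a gene, with the 2-HG library minus the α-KG library on the x axis and the 2-HG control minus the α-KG control on the y axis, both in log2(TPM + 1). Black rings mark the genes called by limma, grey rings other named genes, and colours 4 gene lists: the cholesterol synthesis genes lie mostly at the upper right and the ribosomal proteins mostly in the lower left.

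The integrated stress response differed in the 2-HG experiment by a set of stress factors and biosynthetic enzymes. Of 34 genes on the list, 21 were measured, and 14 of these 21 (66.7%) were higher in both libraries of the 2-HG experiment while 0 were lower in both. Such counts, here and in the lists below, are to be set beside 20.3% each way over all genes. Of the 21, 2 reached 5 TPM only in the 2-HG experiment, and 12 of the other 19 were higher. The median difference over the list was 0.53, against 0.00 over all genes, with 0.20 in the treated arm and 0.86 in the control arm. No member passed the limma threshold. In bulk samples, fewer cells of a type and less RNA per cell cannot be told apart, here and in the groups that follow.

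**Figure D2:**
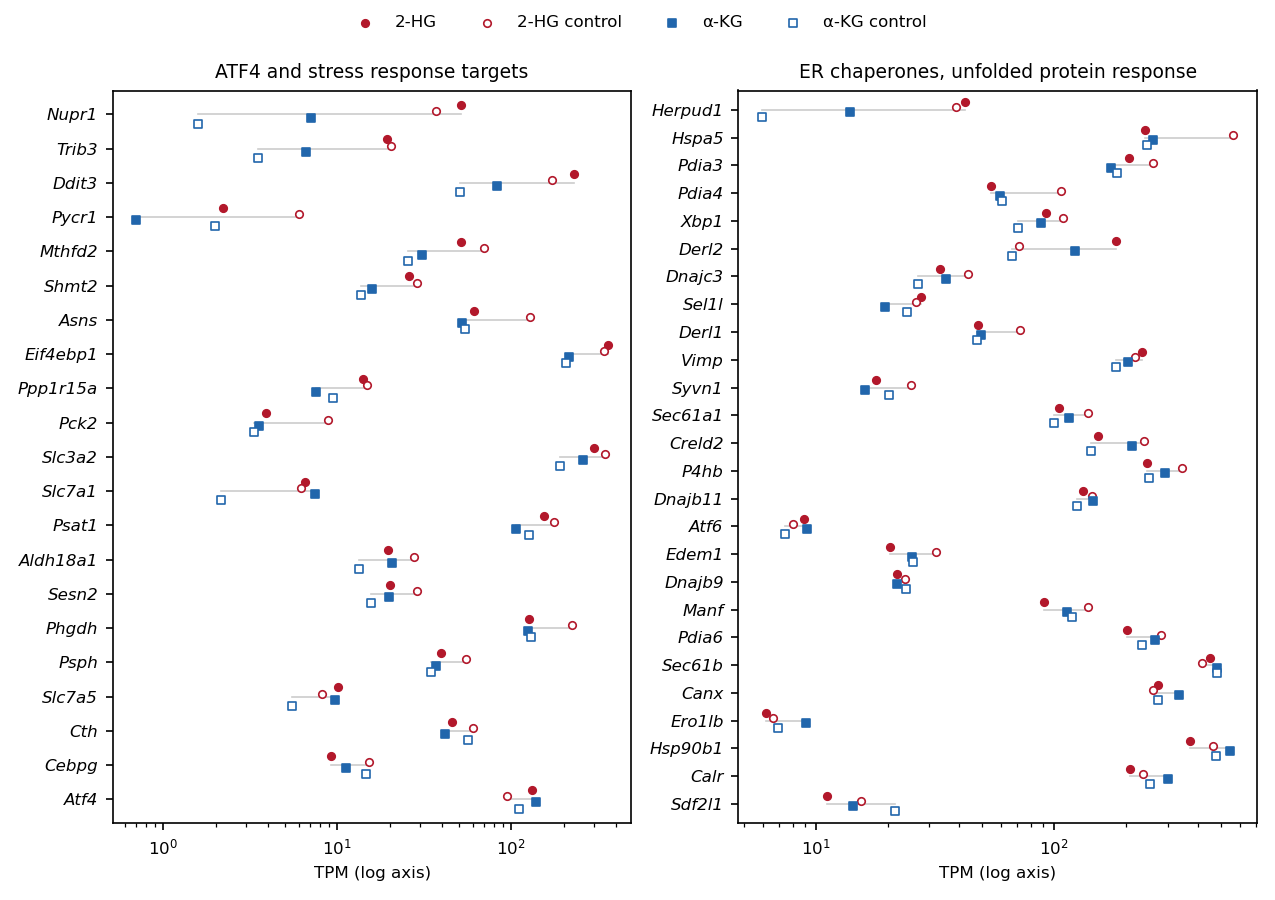
TPM on a log axis of the measured members of the stress response list (left) and the ER list (right), with 1 symbol per library and members ordered by the difference of the experiments. At the top of the left panel both red symbols of Nupr1, Trib3 and Ddit3 lie to the right of both blue ones, while Atf4 at the bottom shows no such order, and most ER chaperones overlap.

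Nupr1, a small chromatin-associated stress protein, had 51.6 TPM with 2-HG and 36.9 TPM in its control, against 7.09 TPM with α-KG and 1.58 TPM in its control. Its log2 difference was 3.29 (SE 0.50, limma adjusted p = 0.126), one of the 12 widest gaps between the experiments among named genes. Trib3, a pseudokinase that feeds back on ATF4, had 19.4 TPM with 2-HG and 20.4 TPM in its control, against 6.65 TPM with α-KG and 3.48 TPM in its control. Ddit3, which encodes the stress factor CHOP, had 228 TPM with 2-HG and 172 TPM in its control, against 82.8 TPM with α-KG and 51.0 TPM in its control. For Ddit3 the log2 difference was 1.59 (SE 0.26, limma adjusted p = 0.173), and 68 of its exon bases lie opposite Mars. In all 3 stress genes the treated library of the α-KG experiment lay above its control, yet below both libraries of the 2-HG experiment.

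Single enzymes of serine and one-carbon metabolism were also higher, but the list of serine, one-carbon and nucleotide synthesis was not: 7 of its 31 members (22.6%) were higher in both libraries and 5 (16.1%) lower, against 20.3% each way over all genes. Its median of 0.11 was 0.02 without the 2-HG control and 0.01 without the α-KG library. Mthfd2, of the mitochondrial folate pathway, had 51.7 TPM with 2-HG and 69.6 TPM in its control, against 30.6 TPM with α-KG and 25.5 TPM in its control. Shmt2, which passes the carbon of serine into that pathway, had 26.0 TPM with 2-HG and 28.6 TPM in its control, against 15.9 TPM with α-KG and 13.8 TPM in its control. Eif4ebp1, a brake on translation initiation, had 360 TPM with 2-HG and 343 TPM in its control, against 216 TPM with α-KG and 207 TPM in its control. For these 3 genes the experiments were ordered alike in both arms. Asns, the asparagine synthetase, was higher in both libraries too, but unevenly: it had 61.1 TPM with 2-HG and 128 TPM in its control, against 51.8 TPM with α-KG and 54.0 TPM in its control, so that the 2-HG control stood far above the rest. Phgdh, the first enzyme of serine synthesis, overlapped between the experiments, and its 2-HG control was again the highest library at 224 TPM, against 127 TPM with 2-HG, 126 TPM with α-KG and 130 TPM in the control of α-KG.

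Atf4 itself overlapped, with 131 TPM with 2-HG and 94.5 TPM in its control, against 139 TPM with α-KG and 110 TPM in its control. ATF4 is known to be controlled mainly through translation of its mRNA, which TPM do not measure. The cytosolic aminoacyl-tRNA synthetases, which load amino acids onto tRNAs and are known ATF4 targets in part, had a median difference of 0.21, with 13 of 20 higher in both libraries and 0 lower, and 0 of 20 past the size condition. This median was 0.35 without the 2-HG library and 0.13 without the 2-HG control. Cars was the furthest, with 44.1 TPM with 2-HG and 64.5 TPM in its control, against 33.9 TPM with α-KG and 26.9 TPM in its control.

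The promoters of some stress genes are shown because members that lay high, among them Nupr1 and Trib3 but not Ddit3, share a motif. The windows run from 250 bases before to 50 bases after the annotated start, from RefSeq on GRCm38.p6, and capitals mark the ATF4 motif (CARE, letters TGATGNAA on either strand) in the first 4 and the ER stress motif ERSE, a CCAAT box and a CCACG box 9 bases apart, in the last. They lie at chr7:126625421-126625720 on the minus strand for Nupr1, chr2:152344011-152344310 on the minus strand for Trib3, chr6:7693160-7693459 on the minus strand for Asns, chr8:94386179-94386478 on the plus strand for Herpud1, and chr2:34771840-34772139 on the plus strand for Hspa5.
Nupr1: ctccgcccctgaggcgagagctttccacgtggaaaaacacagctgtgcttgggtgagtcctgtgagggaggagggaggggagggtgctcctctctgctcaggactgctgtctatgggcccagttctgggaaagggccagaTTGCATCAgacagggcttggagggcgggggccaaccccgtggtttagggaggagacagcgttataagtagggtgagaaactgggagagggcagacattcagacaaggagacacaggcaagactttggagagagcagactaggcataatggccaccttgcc
Trib3: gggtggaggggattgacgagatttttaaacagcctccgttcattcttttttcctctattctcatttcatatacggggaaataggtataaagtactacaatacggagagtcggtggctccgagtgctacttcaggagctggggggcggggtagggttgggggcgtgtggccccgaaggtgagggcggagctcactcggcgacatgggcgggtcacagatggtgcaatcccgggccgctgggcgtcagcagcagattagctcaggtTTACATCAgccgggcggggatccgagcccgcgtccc
Asns: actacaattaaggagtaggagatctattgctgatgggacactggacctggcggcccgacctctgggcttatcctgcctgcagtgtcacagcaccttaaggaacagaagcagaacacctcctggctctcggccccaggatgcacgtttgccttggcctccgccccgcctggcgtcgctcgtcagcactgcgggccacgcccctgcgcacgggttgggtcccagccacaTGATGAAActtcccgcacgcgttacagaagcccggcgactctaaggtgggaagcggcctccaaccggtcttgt
Herpud1: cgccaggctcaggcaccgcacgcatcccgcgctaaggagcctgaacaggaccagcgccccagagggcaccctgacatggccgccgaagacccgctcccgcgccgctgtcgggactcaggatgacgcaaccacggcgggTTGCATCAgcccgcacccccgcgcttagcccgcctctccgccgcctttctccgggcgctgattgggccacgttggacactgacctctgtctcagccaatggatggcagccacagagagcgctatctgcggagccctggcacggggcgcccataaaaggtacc
Hspa5: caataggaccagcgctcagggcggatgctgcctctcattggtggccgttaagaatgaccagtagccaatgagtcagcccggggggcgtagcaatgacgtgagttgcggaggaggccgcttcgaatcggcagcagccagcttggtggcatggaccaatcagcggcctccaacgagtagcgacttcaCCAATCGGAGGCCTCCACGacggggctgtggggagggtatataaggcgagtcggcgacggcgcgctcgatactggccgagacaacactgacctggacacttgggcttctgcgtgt

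Relative to the start site, the ATF4 motif began at position -110 in Nupr1, 14 in Trib3, -23 in Asns and -112 in Herpud1, and the ERSE at -65 in Hspa5. Of the 21 measured stress response members, 18 had a window, and 5 of these 18 (27.8%) held the ATF4 motif: Nupr1, Trib3, Asns, Pycr1 and Pck2. Ddit3 was not among them. Nupr1, Trib3 and Asns were higher in both libraries of the 2-HG experiment. Pycr1 and Pck2 were too, but they reached 5 TPM only in the 2-HG control and so were measured through the side where they are high. Among all 7565 tested genes with a window, 194 (2.56%) held it, and of those 194, 24.7% were higher in both libraries and 13.4% lower. Over the 27025 genes of the promoter table the share was 4.51%. The stress list was drawn up from ATF4 and stress response targets, so its share with the motif is no result about these libraries. A match describes letters in a window and shows no binding.

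ER chaperones and the unfolded protein response had 5 of 26 measured members higher and 5 lower in both libraries (19.2% each), close to the 20.3% each way over all genes, and a median of 0.12. Herpud1, a membrane protein of ER-associated degradation, was the exception, with 42.2 TPM with 2-HG and 38.7 TPM in its control, against 14.0 TPM with α-KG and 5.95 TPM in its control (log2 difference 2.02, SE 0.36, limma adjusted p = 0.208). It was also the 1 member of 22 with a window that held the ATF4 motif. Among ER stress motifs only the ERSE in the form given above was searched for, and which factor acts on Herpud1 was not tested. Hspa5, the master ER chaperone BiP, had 240 TPM with 2-HG and 565 TPM in its control, against 259 TPM with α-KG and 245 TPM in its control, so its difference came from the 2-HG control alone. Calr, the lectin chaperone calreticulin, had 209 TPM with 2-HG and 236 TPM in its control, against 301 TPM with α-KG and 253 TPM in its control, and was lower in both libraries. The ERSE was held by 9 of the 22 ER members with a window (40.9%), among them Hspa5, Calr and Hsp90b1, against 0.212% of all tested genes with a window. Of those 9, 0 were higher in both libraries and 4 were lower (44.4%). The ER list was drawn up from genes of this response, so its share with the ERSE is no result about these libraries. The list median was -0.11 in the treated arm and 0.26 in the control arm. Leaving out a library moved it to 0.26 (2-HG), -0.06 (2-HG control) or 0.01 (control of α-KG).

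Cholesterol synthesis had a median of 0.60 between the experiments, and it was nearly the same in both arms, at 0.56 with the compounds and 0.63 in the controls. Of 28 genes, 25 were measured, 22 of these (88.0%) were higher in both libraries of the 2-HG experiment, 0 were lower in both, and 6 were also at least 2-fold apart. Of the 25, 1 reached 5 TPM only in the 2-HG experiment, and 21 of the other 24 were higher, with a median of 0.61. None passed the limma threshold. The summed TPM of the 28 genes was 1254 with 2-HG and 1214 in its control, against 755 with α-KG and 709 in its control. The higher members span the pathway from Hmgcs1 near its start to Dhcr7 at its end.

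Cyp51, the sterol 14-demethylase, had 21.5 TPM with 2-HG and 18.9 TPM in its control, against 6.65 TPM with α-KG and 5.74 TPM in its control (log2 difference 1.56 in each arm, SE 0.29, limma adjusted p = 0.208). Fdft1, the squalene synthase that commits the pathway to sterols, had 154 TPM with 2-HG and 118 TPM in its control, against 51.0 TPM with α-KG and 44.5 TPM in its control (log2 difference 1.48, SE 0.21, limma adjusted p = 0.106). Fdft1 shares 774 exon bases on the opposite strand with Ctsb, a lysosomal protease that was also higher in both libraries. Sqle, the squalene epoxidase, had 55.8 TPM with 2-HG and 32.0 TPM in its control, against 17.9 TPM with α-KG and 10.5 TPM in its control. For each of these enzymes the lower library of the 2-HG experiment was well above the higher one of the α-KG experiment.

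Of the regulators, Insig1 and Srebf2 lay the same way. Insig1, which holds the SREBP complex in the ER and is itself an SREBP target, had 78.7 TPM with 2-HG and 44.7 TPM in its control, against 26.8 TPM with α-KG and 27.7 TPM in its control. Srebf2, the gene of SREBP2, had 15.0 TPM with 2-HG and 15.4 TPM in its control, against 4.64 TPM with α-KG and 12.2 TPM in its control. It was thus higher in both libraries of the 2-HG experiment, but by little in the controls and mostly through the low α-KG library. Insig2 and Scap, which also take part in SREBP control, overlapped between the experiments.

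Among 11 measured genes of fatty acid synthesis, 6 were higher in both libraries and 0 lower, while the median was 0.10. This median was 0.28 without the 2-HG library, 0.43 without the α-KG library and 0.16 without the control of α-KG. The higher ones included the desaturases Scd1 and Scd2, which make monounsaturated fatty acids, the elongase Elovl1 and Fasn. Scd2 had 195 TPM with 2-HG and 104 TPM in its control, against 74.0 TPM with α-KG and 58.2 TPM in its control. Fasn, the fatty acid synthase, had 8.65 TPM with 2-HG and 12.5 TPM in its control, against 6.35 TPM with α-KG and 3.38 TPM in its control. Acaca, Acly and Elovl6 differed by at most 0.05 on the log2 scale and overlapped.

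Lysosomal genes and the V-ATPase also had most members higher. Of 34 measured members, 23 (67.6%) were higher in both libraries of the 2-HG experiment and 2 were lower, with a median of 0.38, or 0.27 in the treated arm and 0.44 in the control arm. Atp6v0b, a proteolipid of the membrane ring of the pump, had 686 TPM with 2-HG and 656 TPM in its control, against 324 TPM with α-KG and 250 TPM in its control (log2 difference 1.23, SE 0.17, limma adjusted p = 0.106). Atp6ap1, an accessory subunit, had 127 TPM with 2-HG and 115 TPM in its control, against 58.5 TPM with α-KG and 48.3 TPM in its control. The pump genes were not uniform: Atp6v1c1, a subunit of the cytosolic part, had 29.0 TPM with 2-HG and 8.57 TPM in its control, against 61.3 TPM with α-KG and 55.8 TPM in its control.

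Lamp1, the main glycoprotein of the lysosomal membrane, had 824 TPM with 2-HG and 819 TPM in its control, against 571 TPM with α-KG and 508 TPM in its control. Lamp2 overlapped, with 132 TPM with 2-HG and 113 TPM in its control, against 128 TPM with α-KG and 121 TPM in its control. Hexa, a subunit of the ganglioside-cleaving hexosaminidase, had 317 TPM with 2-HG and 251 TPM in its control, against 181 TPM with α-KG and 157 TPM in its control. Tfeb, a transcription factor of lysosomal genes, showed no order, with 10.1 TPM with 2-HG and 19.9 TPM in its control, against 19.3 TPM with α-KG and 2.12 TPM in its control. The heavy ferritin chain Fth1, which stores iron, lay higher too, with 1435 TPM with 2-HG and 1264 TPM in its control, against 875 TPM with α-KG and 820 TPM in its control.

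**Figure D3:**
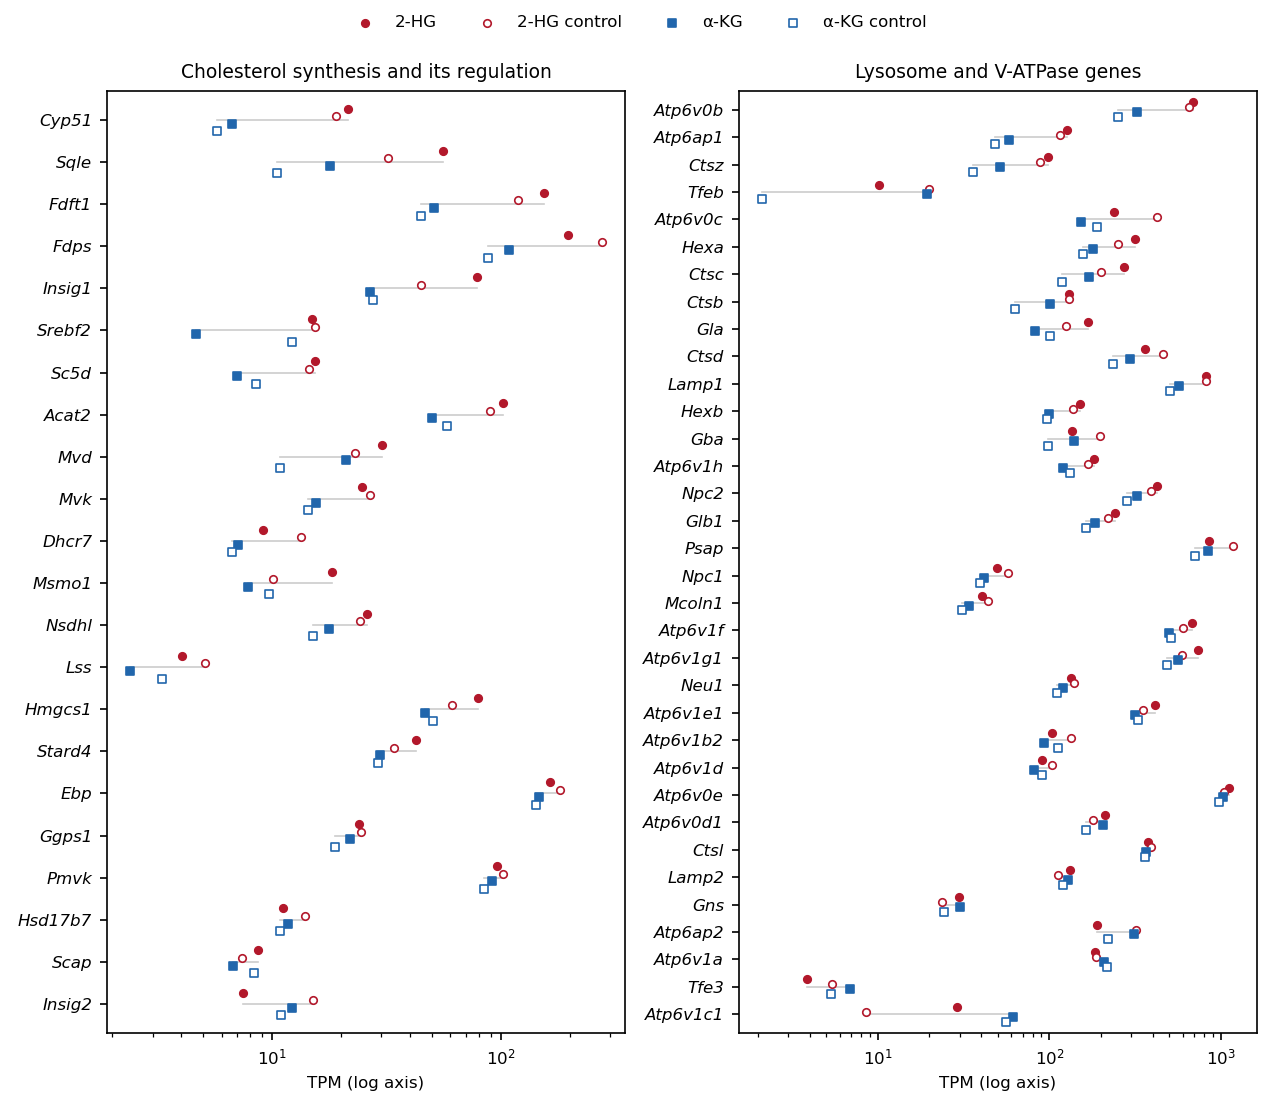
TPM on a log axis of 22 of the 25 measured members of the cholesterol list (left) and of the 34 measured members of the lysosome and V-ATPase list (right), with 1 symbol per library. In 19 rows on the left and 23 on the right both red symbols lie to the right of both blue ones, and Atp6v1c1 at the bottom right lies the other way.

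Cytosolic ribosomal protein genes lay lower in the 2-HG experiment, by little but in most members. Of 82 measured, 64 (78.0%) were lower in both libraries and 1 was higher, with a median of -0.29, or -0.23 in the treated arm and -0.31 in the control arm. Together they took 8.02% of the TPM with 2-HG and 8.06% in its control, against 9.34% with α-KG and 9.69% in its control. Rps21 may serve as an example, with 553 TPM with 2-HG and 478 TPM in its control, against 780 TPM with α-KG and 704 TPM in its control. Ribosomal protein mRNAs are short and have many near-identical pseudogene copies, so single values are uncertain. The 758 tested genes with at most 600 exon bases had a median of -0.22, while non-ribosomal coding genes of at least 200 TPM with at most 2000 exon bases had a median of 0.03, and the part of transcript length was not tested. Rpl29 was the 1 member past the size condition, and it rested on 1 library: 29.3 TPM with 2-HG, but 679 TPM in its control, against 746 TPM with α-KG and 688 TPM in its control. Proteasome subunits went the other way, with 21 of 36 (58.3%) higher in both libraries and 0 lower, and a median of 0.15 in each arm.

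Of the lineage lists, the epiblast list lay lower in the 2-HG experiment. All 4 libraries held high trophectoderm keratins, with Krt18 between 3607 and 4339 TPM, and so expressed this outer epithelium strongly. Of 17 measured epiblast and naive pluripotency genes, 10 (58.8%) were lower in both libraries of the 2-HG experiment and 0 were higher, with a median of -0.28, or -0.31 in the treated arm and -0.26 in the control arm. Leaving out the 2-HG library moved this median to -0.17. Sox2 and Fgf4 reached 5 TPM only in the α-KG experiment, where they are high, and among the other 15 members 8 were lower, with a median of -0.20. The summed TPM of the list was 5809 with 2-HG and 5335 in its control, against 6252 with α-KG and 6775 in its control.

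Sox2, a core factor of the epiblast, had 1.92 TPM with 2-HG and 2.38 TPM in its control, against 9.18 TPM with α-KG and 8.91 TPM in its control (log2 difference -1.68, SE 0.45, limma adjusted p = 0.414). Fgf4, the signal from epiblast to its neighbours, had 2.48 TPM with 2-HG and 0.979 TPM in its control, against 6.41 TPM with α-KG and 4.11 TPM in its control. Spp1, the secreted protein osteopontin, had 227 TPM with 2-HG and 445 TPM in its control, against 573 TPM with α-KG and 495 TPM in its control. Nanog was also ordered, with 44.2 TPM with 2-HG and 62.8 TPM in its control, against 75.2 TPM with α-KG and 66.3 TPM in its control, but both controls nearly met. Pou5f1 was not ordered, with 40.6 TPM with 2-HG and 43.3 TPM in its control, against 28.1 TPM with α-KG and 47.3 TPM in its control. Dppa4 and Gdf3 overlapped as well.

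Trophectoderm genes had no common direction, with 4 of 19 (21.1%) higher in both libraries and 3 (15.8%) lower, against 20.3% each way over all genes. Their median was -0.01, which was 0.045 without the 2-HG library and -0.22 without the 2-HG control. Cdx2, the trophectoderm factor, had 13.5 TPM with 2-HG and 17.3 TPM in its control, against 16.2 TPM with α-KG and 15.7 TPM in its control. A pair of genes of barrier and transport lay higher: Cldn4, a tight junction protein, had 155 TPM with 2-HG and 394 TPM in its control, against 139 TPM with α-KG and 91.6 TPM in its control. Aqp3, a water and glycerol channel of the cavity-forming epithelium, had 72.3 TPM with 2-HG and 91.1 TPM in its control, against 55.9 TPM with α-KG and 45.9 TPM in its control. Elf5 lay lower only by the control of the α-KG experiment, at 6.90 TPM, against 0.782 TPM with 2-HG, 0.757 TPM in the control of 2-HG and 1.20 TPM with α-KG. Dsp, a desmosome protein, was low with α-KG alone, at 12.5 TPM, against 78.6 to 80.5 TPM in the other libraries.

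Primitive endoderm genes had a median of 0.08, which was 0.21 without the α-KG library and -0.03 without the control of α-KG. Of 12 measured, 4 (33.3%) were higher in both libraries and 1 (8.33%) lower, against 20.3% each way over all genes. Over the 10 members that reached 5 TPM in both experiments the median was -0.06, with 3 higher and 1 lower. The 4 higher members were genes of the basement membrane, namely the collagen chains Col4a1 and Col4a2 and the laminin chains Lama1 and Lamc1. Of these, Lama1 reached 5 TPM only in the 2-HG experiment, where it is high. Col4a1 had 12.3 TPM with 2-HG and 6.99 TPM in its control, against 5.61 TPM with α-KG and 5.54 TPM in its control. Gata6, the lineage factor, was the 1 lower member, with 161 TPM with 2-HG and 190 TPM in its control, against 208 TPM with α-KG and 212 TPM in its control.

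**Figure D4:**
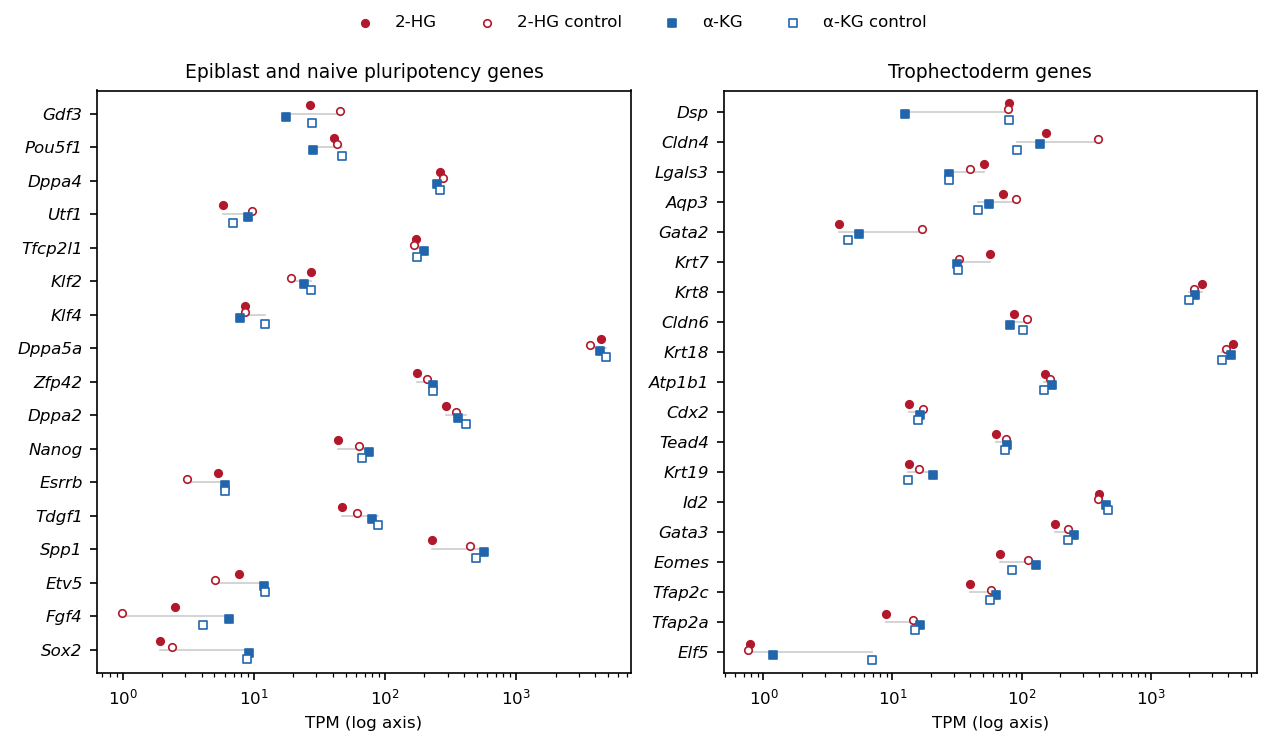
TPM on a log axis of the measured epiblast and naive pluripotency genes (left, 17 genes) and trophectoderm genes (right, 19 genes), with 1 symbol per library and members ordered by the difference of the experiments. Both red symbols of Sox2 and Fgf4 lie to the left of both blue ones, while Pou5f1, Cdx2 and the keratins Krt8 and Krt18 overlap.

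TET dioxygenases and JmjC histone demethylases use α-KG as a co-substrate, and 2-HG is known to compete with it at their active sites. They were compared within wider lists that also hold genes without this chemistry, such as DNA methyltransferases, Zfp57 and the LSD demethylases. Of 11 measured genes of DNA methylation control, 6 (54.5%) were lower in both libraries of the 2-HG experiment and 0 higher, with a median of -0.27. Tet2, a DNA dioxygenase, had 66.8 TPM with 2-HG and 78.2 TPM in its control, against 114 TPM with α-KG and 98.9 TPM in its control. Tet1 overlapped, with 40.9 TPM with 2-HG and 19.8 TPM in its control, against 41.1 TPM with α-KG and 40.7 TPM in its control, so that the 2-HG control alone was low. Zfp57, which protects imprints and reached 5 TPM only in the α-KG experiment, had 1.97 TPM with 2-HG and 3.70 TPM in its control, against 6.21 TPM with α-KG and 6.29 TPM in its control. Dnmt3b, a DNA methyltransferase, was equal in both controls at 103 TPM, with 55.7 TPM with 2-HG against 113 TPM with α-KG. Of 20 histone demethylases of the JmjC and LSD families, 6 (30.0%) were lower in both libraries and 1 was higher, against 20.3% each way over all genes, with a median of -0.21 that moved to -0.02 without the 2-HG library and to -0.33 without the 2-HG control.

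Of the enzymes that make or remove both metabolites, 9 of 22 (40.9%) were higher in both libraries of the 2-HG experiment and 2 (9.09%) were lower, against 20.3% each way over all genes. Their median was 0.20, and 0.03 without the 2-HG control. Idh2, the mitochondrial enzyme that forms α-KG from isocitrate, had 206 TPM with 2-HG and 212 TPM in its control, against 140 TPM with α-KG and 126 TPM in its control. Idh1, its cytosolic counterpart, overlapped, with 187 TPM with 2-HG and 201 TPM in its control, against 212 TPM with α-KG and 154 TPM in its control. Bcat2, the mitochondrial branched-chain aminotransferase that uses α-KG as acceptor, had 52.8 TPM with 2-HG and 59.8 TPM in its control, against 28.8 TPM with α-KG and 25.7 TPM in its control. D2hgdh, which oxidises D-2-HG back to α-KG, overlapped between the experiments.

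Imprinted genes, expressed from 1 parental allele, had a median of 0.31, with 7 of 16 measured higher in both libraries and 0 lower. Of the 16, 12 reached 5 TPM in both experiments, and of these 5 were higher, with a median of 0.20. The control arm (0.52) carried more of it than the treated arm (0.06), and the median was 0.48 without the α-KG library, 0.19 without the control of α-KG, and 0.10 with every gene above 0 TPM counted. Ascl2, a trophoblast factor expressed from the maternal allele, had 9.68 TPM with 2-HG and 9.85 TPM in its control, against 2.62 TPM with α-KG and 1.39 TPM in its control. Ascl2 thus reached 5 TPM only in the 2-HG experiment and was measured through the side where it is high. Snrpn, a splicing protein gene expressed from the paternal allele, had 57.0 TPM with 2-HG and 79.4 TPM in its control, against 34.3 TPM with α-KG and 31.3 TPM in its control. H19 was listed at 0 TPM with 2-HG and had 11.6 TPM in its control, against 0.325 TPM with α-KG and 3.19 TPM in its control, and showed no order.

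Genes of nutrient uptake and sugar metabolism were mixed. Slc1a4 and Slc1a5, carriers of small neutral amino acids, were both higher in the 2-HG experiment. Slc1a4 had 7.12 TPM with 2-HG and 5.27 TPM in its control, against 0.469 TPM with α-KG and 0.80 TPM in its control. It reached 5 TPM only in the 2-HG experiment and so was measured through the side where it is high. The list of amino acid transporters had a median of 0.30, with 5 of 16 (31.2%) higher in both libraries and 1 lower, against 20.3% each way over all genes, and this median was 0.02 without the control of the α-KG experiment and 0.53 without the α-KG library. Among the 14 transporters that reached 5 TPM in both experiments, 4 were higher and 0 lower, with a median of 0.30. Of 15 measured glycolysis genes, 4 (26.7%) were higher in both libraries and 1 was lower, with a median of 0.24 that was 0.39 without the 2-HG library and 0.07 without either control. Of those 15, 3 reached 5 TPM only in the 2-HG experiment, and the median of the other 12 was 0.06. Hk2, a hexokinase, lay lower, with 30.4 TPM with 2-HG and 33.6 TPM in its control, against 47.5 TPM with α-KG and 54.0 TPM in its control. Ldha, which reduces pyruvate to lactate, lay higher, with 62.4 TPM with 2-HG and 63.0 TPM in its control, against 46.8 TPM with α-KG and 20.5 TPM in its control. Gapdh had 3.05 TPM with 2-HG and 44.2 TPM in its control, against 4.94 TPM with α-KG and 1.13 TPM in its control, which is low for a glycolytic enzyme and high in 1 library, and its many pseudogene copies make it uncertain.

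The other genes with the widest gaps between the experiments have varied functions. Among the higher ones, Samd4b, an RNA-binding translational repressor, had 13.2 TPM with 2-HG and 12.8 TPM in its control, against 2.39 TPM with α-KG and 2.26 TPM in its control. Map2k3, a kinase upstream of p38, had 28.7 TPM with 2-HG and 28.1 TPM in its control, against 10.4 TPM with α-KG and 10.1 TPM in its control. Both were as far apart in the treated as in the control arm. Ramp2, a receptor-modifying protein, was higher, but it shares 1103 exon bases on the same strand with Vps25, which was lower, so the pair cannot be told apart from another division of shared reads. Hist2h3c2 and Bglap3 were higher too, and both have near-identical copies that make their values uncertain. Mtch1, a mitochondrial outer membrane protein, completes the 12 higher genes named by this rule, beside Haus1, Gatad2a, Nupr1, Trib3, Herpud1 and Cyp51.

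Among the lower ones, Chmp3 and Vps25 are parts of the ESCRT machinery, which sorts membrane proteins into late endosomes. Chmp3 had 27.9 TPM with 2-HG and 26.4 TPM in its control, against 69.8 TPM with α-KG and 76.7 TPM in its control (log2 difference -1.40, SE 0.20, limma adjusted p = 0.106). Vps25 had 68.7 TPM with 2-HG and 75.4 TPM in its control, against 287 TPM with α-KG and 200 TPM in its control. Stard7, a carrier of phosphatidylcholine to mitochondria, had 4.25 TPM with 2-HG and 12.4 TPM in its control, against 63.8 TPM with α-KG and 54.9 TPM in its control. Ythdc1, a nuclear reader of methylated adenosine in RNA, had 30.0 TPM with 2-HG and 27.8 TPM in its control, against 80.1 TPM with α-KG and 66.7 TPM in its control. Tnpo1, a nuclear import receptor, and Ctbp2, a transcriptional corepressor, also had both 2-HG-experiment libraries far below the others. Gemin4, Thap4, Mast4 and Tdpoz2 complete the 12, of which Gemin4 shares 3353 exon bases with Glod4 on the same strand and Tdpoz2 belongs to a family of near-identical genes.

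**Figure D5:**
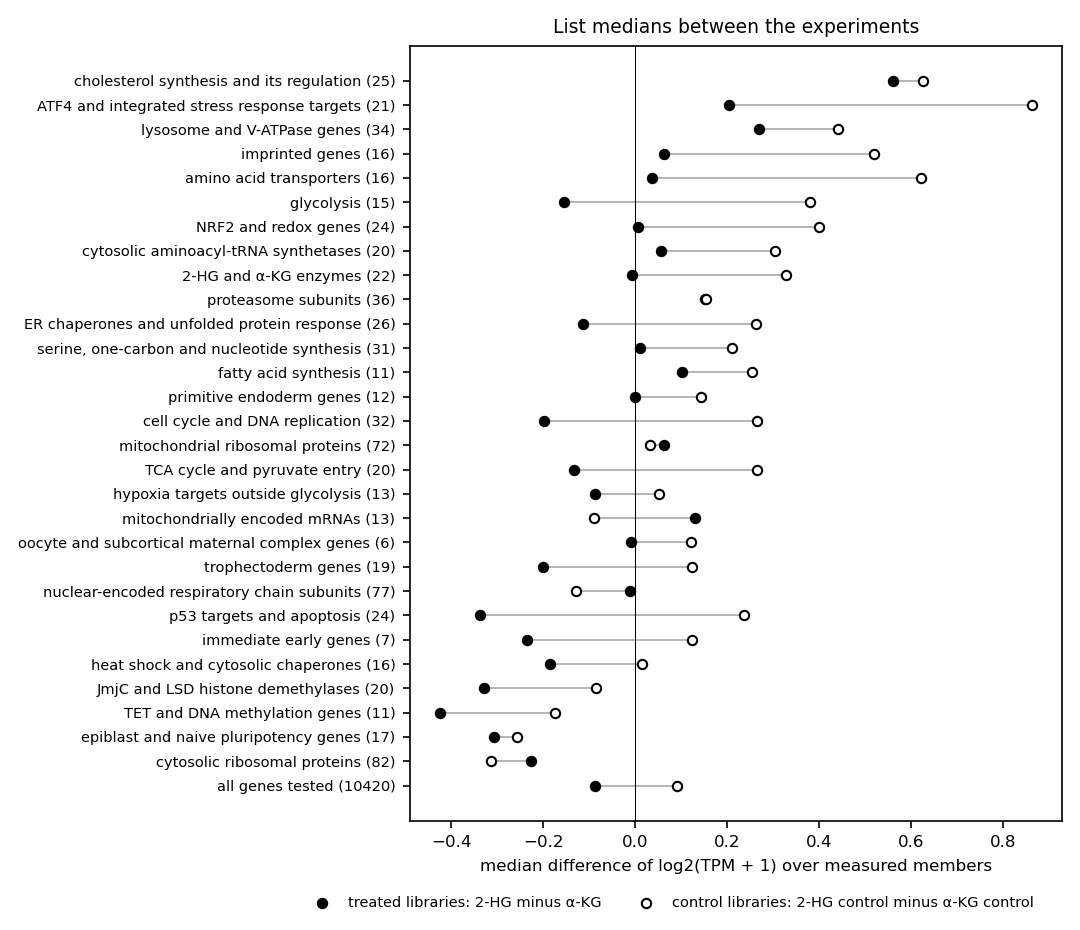
Median difference of log2(TPM + 1) over the measured members of 29 gene lists and over all genes tested, with filled circles for 2-HG minus α-KG and open circles for the 2-HG control minus the α-KG control. The number of measured members stands beside each name. Cholesterol synthesis, lysosome and ribosomal protein lists have both circles on one side and close together, whereas the circles of the stress response list lie at 0.20 and 0.86.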

How the data were processed

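Each of the 4 libraries is a column of TPM that the authors computed per gene and deposited. The columns summed to 999891 to 999935. The submitters' processing notes name the tools HISAT2, StringTie, Trimmomatic, DESeq2 and Picard and the builds GRCm38.p6 and mm10, without versions, roles or order. Each library started from 1 ng of cDNA that had been amplified, per the labels' protocols. No read counts were used, so depth is unknown and no counting intervals are given. Because TPM share a fixed total, a rise of abundant transcripts lowers all others.

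Gene IDs were matched to GENCODE M21 on GRCm38 (53620 of 53715), which gave coordinates, exon lengths and overlaps. Another 10 library columns of a second deposited sheet were not used here, 6 of them from libraries outside the labels. The other 4 repeat values of the main table, and 180 of 180 were equal within 1e-06.

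log2(TPM + 1) was fitted with limma 3.58.1 in R 4.3.3 (lmFit, eBayes with trend, experiment as the only term, 2 residual degrees of freedom), with Benjamini-Hochberg adjustment over 10420 genes at 5 TPM or more in at least 1 library and a threshold of 0.05. The code of the fit was run on simulated independent replicates with known folds, which does not bear on the p-values of these libraries. Both libraries of an experiment stand in for replicates, so their spread contains any effect of the compound. The size and order rule asked for a difference of at least 1 and no overlap. Named genes were the 12 per direction with the widest gap and a mean of at least 10 TPM in the higher experiment, without predicted genes, clones and pseudogenes, up to 4 members per list, and a set of regulators. The comparison and the 33 lists were chosen with earlier results of these data known, and lists received no test. Gata4 and the 2-cell list, with 1 member measured, are not described. Values of some other list members are not reported here. Promoter windows come from RefSeq. Matches to windows reached 80% of a list for the stress response and ER lists and not for the cholesterol list (72.0%), whose share is void. Alternatives covered the pseudocount, the filter, scaling, the trend, arm as a block and leaving out each library.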

Additional observations from a re-analysis of the deposited data

Results flagged for a closer look

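For 13 gene lists the median difference between the experiments, in log2(TPM + 1), pointed one way in the treated arm (2-HG minus α-KG) and the other way in the control arm (2-HG control minus α-KG control). The difference between the arms was not tested, since each arm has 1 library per experiment, and medians over all genes of -0.09 in the treated arm and 0.09 in the control arm lie in the same directions. The widest were p53 targets and apoptosis genes (-0.34 in the treated arm and 0.24 in the control arm), glycolysis (-0.15 and 0.38 in the same order of arms), cell cycle and DNA replication genes (-0.20 and 0.27), the TCA cycle (-0.13 and 0.27), ER chaperones and the unfolded protein response (-0.11 and 0.26), immediate early genes (-0.24 and 0.12) and enzymes of 2-HG and α-KG (-0.01 and 0.33). The same held for trophectoderm genes (-0.20 and 0.12), heat shock and cytosolic chaperones (-0.19 and 0.02), hypoxia targets outside glycolysis (-0.09 and 0.05), oocyte and subcortical maternal complex genes (-0.01 and 0.12) and primitive endoderm genes (-0.00063 and 0.14). Mitochondrially encoded mRNAs alone pointed up in the treated arm (0.13) and down in the control arm (-0.09).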

How the results depend on the processing

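The 2 higher and 3 lower calls of limma became 0 and 0 without the trend in eBayes (750 genes at an unadjusted p under 0.05) and with every gene above 0 TPM tested (1568 genes). Leaving out 1 library gave 0 higher in each case and 0 to 3 lower, with 0 genes shared. With arm as a replicate block they were 2 higher and 2 lower, 2 higher and 2 lower also with median-of-ratios scaling, and 2 and 3 under the other settings, although with at least 5 TPM in all 4 libraries 2 of the 3 lower genes were the same. The labels give no replicate numbers, so the arms pair libraries only as treated or control. The 204 higher and 180 lower genes by size and order became 74 and 56 with a pseudocount of 5, 421 and 355 with every gene above 0 TPM, 69 and 41 with at least 5 TPM in all 4 libraries, 24 and 27 at a 4-fold size, and 161 and 102 for protein-coding genes only, the last chosen after seeing the data. Leaving out 1 library gave 320 to 447 higher and 241 to 457 lower. Gatad2a, Haus1, Vamp8 and Tra2a kept their direction under each alternative, with limma adjusted p from 0.0629 to 0.414 when 1 library was left out. The median of the immediate early genes, -0.06, ranged from -0.14 to 0.044 when 1 library was left out, and the cause was not tested. The medians of the stress response, cholesterol, lysosome, ribosomal protein, proteasome and DNA methylation lists stayed within 1.5 times of their values under every setting. No other list whose median exceeded its spread within experiments changed sign. Depth is unknown, so differences of low genes cannot be set against counting error.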
